A study of Mus musculus with 2 samples.

Results

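The let-7 family is a set of microRNAs, short RNAs that are cut from hairpin transcripts and guide repression of target messenger RNAs. In the mouse some let-7 mature forms are made from several genes, and others from 1 gene. Described here are the 6 genes that each make a mature form of their own, Mirlet7b, Mirlet7d, Mirlet7e, Mirlet7g, Mirlet7i and Mir98, out of 2202 miRNA genes listed in each deposited table. They were chosen by name, from the gene symbols that GENCODE M21 gives to the listed identifiers, and all 6 were matched. Total RNA below 30 nucleotides was sequenced from heart tissue of 2 male mice aged 25 days (a free-text label line gives months in place of days), both B6CASTF1/J, the first-generation cross of C57BL/6J with the wild-derived CAST strain, with no treatment or engineered allele in the labels. The libraries, replicates 1 and 2, form 1 group without a contrast. The labels number the animals separately but carry 1 donor identifier for both. Reads of either parental allele were counted against mm10, the C57BL/6J genome.

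Family members share the seed, the stretch of bases 2 to 8 that pairs with targets, so they recognise overlapping sets of messenger RNAs. Let-7 forms are known to accumulate as tissues differentiate, and in the heart they have been studied in cardiomyocyte maturation. The RNA-binding proteins LIN28A and LIN28B block let-7 maturation in early cells by binding the region between the hairpin arms, partly at the letters GGAG. Neither protein nor any target messenger RNA was measured in these libraries.

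The mature forms of the 5′ arm, from RefSeq on GRCm38.p6, show what the 6 genes have in common and what separates them; the seed is in capitals.
let-7i-5p: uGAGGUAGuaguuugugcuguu
let-7g-5p: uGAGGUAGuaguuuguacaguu
let-7b-5p: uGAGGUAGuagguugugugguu
let-7d-5p: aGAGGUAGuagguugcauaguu
let-7e-5p: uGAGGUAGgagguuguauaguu
miR-98-5p: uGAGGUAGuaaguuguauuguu

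All 6 forms are 22 bases long and have the identical seed. Mature forms with this seed were found in the hairpins of 14 RefSeq mouse miRNA genes, among them these 6. Over the whole length 14 of 22 positions hold the same base in all 6 forms. The forms of Mirlet7g and Mirlet7i are the nearest pair, with 2 differences, and those of Mirlet7d and Mirlet7i the most distant, with 6.

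Set against let-7a-5p, a form that comes from several genes, the differing bases (capitals below) fall outside the seed in each of the 6 forms. let-7c-5p and let-7f-5p, which also come from several genes, are shown because they are as close to let-7a-5p as a single base.
let-7a-5p: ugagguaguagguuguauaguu
let-7c-5p: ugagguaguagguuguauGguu
let-7f-5p: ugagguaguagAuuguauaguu
let-7i-5p: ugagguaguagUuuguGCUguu
let-7g-5p: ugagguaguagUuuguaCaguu
let-7b-5p: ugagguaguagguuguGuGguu
let-7d-5p: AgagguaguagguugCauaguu
let-7e-5p: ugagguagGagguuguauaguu
miR-98-5p: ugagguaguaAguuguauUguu

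With positions counted from 1 at the 5′ end and the let-7a-5p base written first, let-7e-5p carries U9G alone, and let-7d-5p carries U1A and U16C. In let-7b-5p the changes are A17G and A19G, of which A19G is shared with let-7c-5p, so let-7b-5p and let-7c-5p differ at 1 position. The changes are G12U and U18C in let-7g-5p, and G12U, A17G, U18C and A19U in let-7i-5p. In miR-98-5p they are G11A and A19U. Each of the 6 mature sequences was found in 1 RefSeq hairpin, while those of let-7a, let-7c and let-7f were each found in 2. The longest stretch of a mature form that also stands in a miRNA gene at another locus, in the same sense, was 16 bases for let-7b, let-7e and let-7i, 17 for let-7g, 14 for let-7d and 10 for miR-98. Multimapping reads, 41.6% of all reads in replicate 1 and 37.4% in replicate 2, have an entry of their own in the tables, so a shortened read that matched another locus equally well would be missing from the gene counts. The counts are per gene, and reads of the 5′ and the 3′ arm of a hairpin are summed in them.

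The region between the arms is shown for 5 of the hairpins, and GGAG is in capitals where it occurs.
Mirlet7i: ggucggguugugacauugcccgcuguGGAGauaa
Mirlet7g: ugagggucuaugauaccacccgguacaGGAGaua
Mirlet7b: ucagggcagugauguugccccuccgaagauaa
Mirlet7d: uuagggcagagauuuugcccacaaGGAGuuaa
Mirlet7e: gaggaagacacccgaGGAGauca

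The motif, searched on the transcribed strand only since the region acts as RNA, was found in 4 of these 5 regions, each time 3 or 4 bases before the 3′ arm. Of 52 RefSeq hairpins with a region of 23 to 34 bases, the span of these 5, 13 (25%) hold GGAG. Those 52 include the let-7 hairpins themselves, and the 13 include the 4 found here. They also include 4 of 5 hairpins of let-7 genes whose mature form comes from several genes. Of all 644 RefSeq hairpins with 2 arms and a region between, of any length and let-7 included, 8.07% hold GGAG. A match is a run of letters and not a measured binding site.

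The 6 genes lie on 6 chromosomes of mm10. Mirlet7i (ENSMUSG00000065406.3, chr10:122985640-122985724, minus strand) lies within D630033A02Rik, a transcribed pseudogene, in an exon of 1 of its 2 spanning transcripts and an intron of the other. Mirlet7g (ENSMUSG00000065440.1, chr9:106178840-106178927, plus strand) lies in an intron of Wdr82, a subunit of histone methyltransferase complexes. Mirlet7b (ENSMUSG00000065564.1, chr15:85707319-85707403, plus strand) lies in an exon of the noncoding gene Lncppara, and Mirlet7d (ENSMUSG00000065453.1, chr13:48536012-48536114, minus strand) in an exon of the noncoding gene 6720427I07Rik. Mirlet7e (ENSMUSG00000105758.1, chr17:17830352-17830444, plus strand) lies in an intron of Spaca6, a gene of sperm and egg fusion, and Mir98 (ENSMUSG00000065536.2, chrX:151913214-151913321, plus strand) in an intron of Huwe1, a ubiquitin ligase gene. Messenger RNAs of these host genes were not measured.

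In both hearts the 6 genes together held over 27% of the reads assigned to a miRNA gene. They had 1333145 of 4930853 assigned counts in replicate 1, or 27.0% (exact Clopper-Pearson 95% interval 27.0 to 27.1%), and 1447924 of 5229819 in replicate 2, or 27.7% (27.6 to 27.7%). The mean share was 27.4 ± 0.459% (SD, n = 2). As a share of all reads, those without a gene included, they held 10.1%. Multimapping reads, which outnumbered the assigned reads in both libraries, are outside the assigned total. In bulk tissue, fewer cells of a type and less RNA per cell cannot be told apart, and the libraries do not show which heart cells the reads came from. Of the 12 family genes whose symbol begins with Mirlet7, or is Mir98, these 6 held 96.5% of the counts in replicate 1 and 96.8% in replicate 2. The reads of the other 6 that were placed at several loci are not in that comparison.

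Mirlet7i, Mirlet7g, Mirlet7b and Mirlet7d were high and close together, and Mirlet7e and Mir98 were well below them. Mirlet7i had 489466 counts in replicate 1 and 461043 in replicate 2, or 99266 and 88157 CPM (counts scaled to the same assigned total of 1e+06). By assigned counts it ranked second of all listed genes in both hearts. Ranks here leave out multimapping reads, so a gene whose mature form comes from several loci can stand too low, and the ranks are not those of all heart miRNAs. Mirlet7g had 316805 and 345826 counts, or 64250 and 66126 CPM. Mirlet7b had 265990 and 321168 counts, or 53944 and 61411 CPM. Mirlet7g was therefore above Mirlet7b in either heart, and its replicate values lay closest together of the 6, with a coefficient of variation of 2.04%. Mirlet7d had 216522 and 264963 counts, or 43912 and 50664 CPM. Mirlet7e had 37488 and 46457 counts, or 7603 and 8883 CPM, and ranked 24 in replicate 1 and 20 in replicate 2. Mir98 was the lowest, with 6874 and 8467 counts, or 1394 and 1619 CPM. The coefficient of variation of the 5 genes other than Mirlet7g lay between 8.38% (Mirlet7i) and 11.0% (Mirlet7e).

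**Figure D1:**
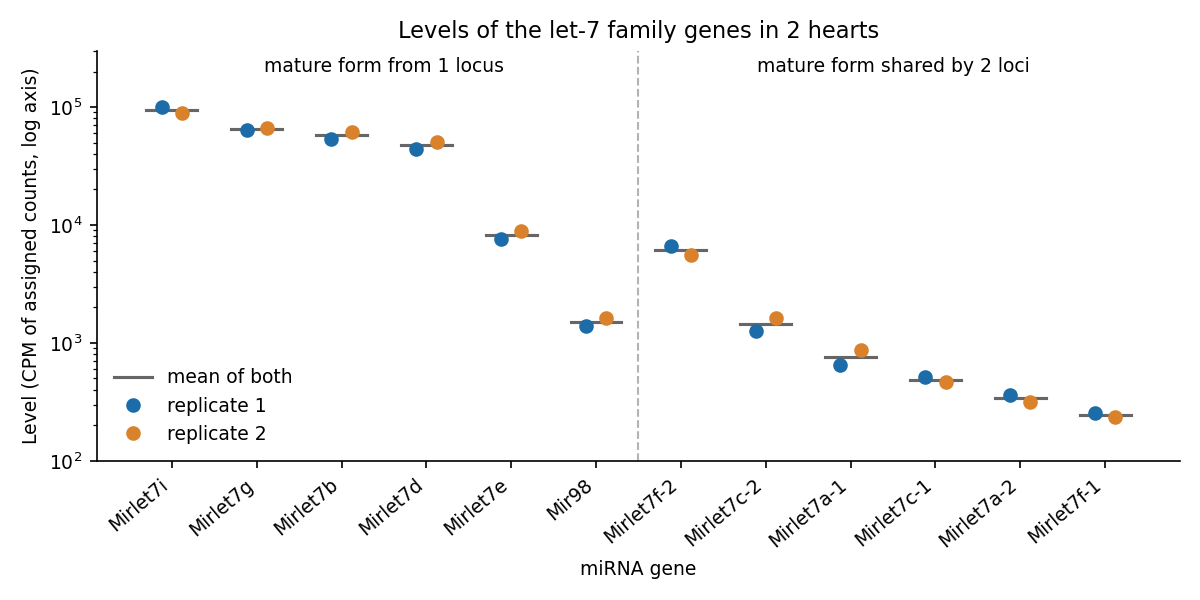
Level of each of 12 let-7 family genes in CPM of assigned counts (log axis), with a point for each heart and a line at their mean. The 6 genes whose mature form comes from 1 locus stand on the left, from Mirlet7i at 99266 and 88157 CPM to Mir98 at 1394 and 1619 CPM; for the 6 on the right, multimapping reads are missing.

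The order Mirlet7i, Mirlet7g, Mirlet7b, Mirlet7d, Mirlet7e, Mir98 was the same in both hearts. For all 15 pairs the higher gene's lower CPM value exceeded the lower gene's higher value, so no neighbours in this order had overlapping ranges. In an exact binomial test of equal counts, two-sided and with Benjamini-Hochberg adjustment over 30 tests (15 pairs in 2 libraries), all 30 were called at 0.05, with a largest adjusted p of 2.79e-200. That test covers counting error within a library only, and 2 libraries are too few for a test over animals. At counts of this size even a ratio of 1.08 was called, so the 30 calls say little about the order. How many pairs of other genes of this depth would be called was not tested. The closest neighbours were Mirlet7g and Mirlet7b, whose count ratio was 1.19 in replicate 1 (exact 95% interval 1.18 to 1.20) and 1.08 in replicate 2 (1.07 to 1.08). The widest gap within the order lay between Mirlet7d and Mirlet7e, at 5.78-fold in replicate 1 (5.71 to 5.84) and 5.70-fold in replicate 2 (5.65 to 5.76). Mirlet7i exceeded Mir98 by 71.2-fold in replicate 1 (69.5 to 72.9) and 54.5-fold in replicate 2 (53.3 to 55.6). Since the mature forms are of equal length, counts were compared without a length term. The sequence preference of adapter ligation also enters ratios between miRNAs, and its part was not tested.

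Within the 6 genes, Mirlet7i supplied 36.7% of the counts in replicate 1 and 31.8% in replicate 2. Mirlet7g supplied 23.8% and 23.9% in the same order, Mirlet7b 20.0% and 22.2%, and Mirlet7d 16.2% and 18.3%. Mirlet7e added 2.81% and 3.21%, and Mir98 0.516% and 0.585%. The 4 most abundant genes thus made up 96.7% of the counts of the 6 in replicate 1 and 96.2% in replicate 2.

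Between the 2 hearts the 6 genes moved little. Mirlet7i was higher in replicate 1 and the other 5 were higher in replicate 2, except that Mirlet7g turned round and lost its call with TMM scaling. All 6 differences exceeded counting error with the total of assigned counts (exact conditional binomial test, two-sided, Benjamini-Hochberg adjustment over 356 genes with at least 10 counts in both libraries). Of all 356 such genes 63.5% were called, 30.6% higher and 32.9% lower in replicate 1, so a call in 6 of 6 genes of this depth says little about let-7. Among the 50 other genes at or above the mean level of Mir98, 47 (94%) were called. With 1 library per animal the test compares the libraries, and differences between animals and between preparations cannot be told apart.

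The sizes were small. Mirlet7i was 1.13-fold higher in replicate 1 than in replicate 2 (exact 95% interval 1.12 to 1.13). Mirlet7b was 1.14-fold (1.13 to 1.14), Mirlet7d 1.15-fold (1.15 to 1.16), Mirlet7e 1.17-fold (1.15 to 1.18) and Mir98 1.16-fold (1.12 to 1.20) higher in replicate 2. Mirlet7g was 1.03-fold higher in replicate 2 (1.02 to 1.03), but with TMM scaling its log2 ratio of replicate 1 over replicate 2 was 0.0049 and the call was lost (adjusted p = 0.228, exact binomial test), and with a total of all reads it was -0.0057 (adjusted p = 0.155, exact binomial test). Of the 6 adjusted p-values the largest was 1.01e-19, for Mir98 (exact binomial test). The absolute log2 ratio of the 6 had a median of 0.20 and did not exceed 0.22. By comparison its median was 0.46 over the other 350 detected genes. It was 0.40 over the other 50 genes at or above the mean level of Mir98, of which 13 had a value no larger than the largest of the 6. edgeR's common biological coefficient of variation over the 356 genes was 0.386.

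**Figure D2:**
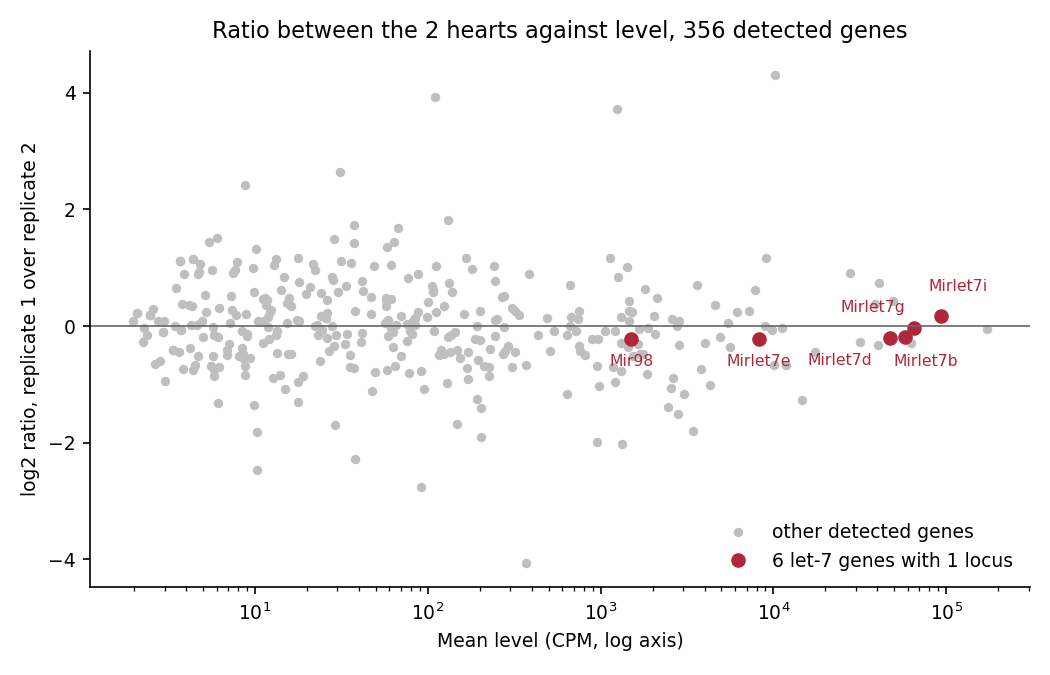
The log2 ratio of replicate 1 over replicate 2 against the mean level (CPM, log axis) for 356 genes with at least 10 counts in both hearts. The 6 let-7 genes (red, named) lie between -0.22 and 0.17, near the middle of the spread of the other genes (grey).

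Marker genes were read in the same libraries to check the tissue and its other cells. Of the 7 heart muscle genes in the list 5 were detected, with Mir499 at 2933 and 2758 CPM, Mir208a at 1361 and 3562 CPM and Mir208b at 191 and 192 CPM in replicates 1 and 2. Mir1a-2 had 41.2 and 34.4 CPM and Mir1a-1 2.84 and 2.29 CPM, while Mir133a-1, with 3 and 30 counts, and Mir133a-2, with 6 and 7 counts, were below the detection minimum in at least 1 library. Since miR-1a and miR-133a, abundant in heart muscle, are each made by a pair of genes, multimapping reads are absent from these counts, and the heart muscle share cannot be set against those of the other lists. The summed levels of the lists in replicates 1 and 2 were 0.453% and 0.656% of assigned counts for heart muscle (5 of 7 genes detected), 5.64% and 6.94% for endothelium (1 of 2) and 3.00% and 3.64% for smooth muscle (2 of 2). They were 0.342% and 0.952% for fibroblasts (3 of 4, with Mir199a-1 at 0 counts in both), 0.479% and 0.513% for leukocytes (4 of 5, with Mir142b at 0) and 2.18% and 0.116% for red blood cells (2 of 2). The fibroblast list likewise holds a pair of genes for miR-199a, Mir199a-1 and Mir199a-2, so multimapping reads can be missing from its share too. Of the 6 lists, that of the red blood cell genes Mir451a and Mir144 differed by the largest factor between the hearts, and its counts are part of the library total. With the total computed without them, the log2 ratios of the 6 let-7 genes moved by 0.03, to 0.20 for Mirlet7i, -0.16 for Mirlet7b, -0.18 for Mirlet7d, -0.19 for Mirlet7e, -0.01 for Mirlet7g and -0.19 for Mir98. The part of blood or of other cells in these ratios was not tested beyond that.

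Ratios between genes within a library do not depend on the library total. For each pair of the 6 genes, the count ratio in replicate 1 was set against the same ratio in replicate 2 (Fisher's exact test, two-sided, adjusted over 15 pairs, a comparison added after the levels were seen). Mirlet7i stood apart, and all 5 of its ratios were higher in replicate 1, by 1.16-fold over Mirlet7g and by up to 1.32-fold over Mirlet7e. The 4 ratios of Mirlet7g over Mirlet7b, Mirlet7d, Mirlet7e and Mir98 were also higher in replicate 1, by 1.11-fold (95% Wald interval 1.10 to 1.11), 1.12-fold (1.11 to 1.13), 1.14-fold (1.12 to 1.15) and 1.13-fold (1.09 to 1.17). Mirlet7i had the highest log2 ratio of the 6 genes and Mirlet7g the next. The direction of these ratios therefore follows from the values of the single genes and is no separate result.

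Mirlet7b, Mirlet7d, Mirlet7e and Mir98, from 4 chromosomes, kept nearly the same proportions in both hearts. They were grouped with the levels known, and their log2 ratios lay between -0.22 and -0.19. Mirlet7g and Mirlet7i, left out of the group, had -0.04 and 0.17. Near-constant proportions therefore follow from the choice of group. Of the 6 ratios among these 4 genes, 2 were called. Mirlet7b over Mirlet7d was 1.01-fold higher in replicate 1 (95% Wald interval 1.01 to 1.02, adjusted p = 0.000834, Fisher's exact test) and Mirlet7b over Mirlet7e 1.03-fold higher (1.01 to 1.04, adjusted p = 0.00069, Fisher's exact test). The other 4 were not called, and their intervals bound a change to within 0.960 and 1.05. Mirlet7e over Mir98 was 5.45 in replicate 1 and 5.49 in replicate 2, and Mirlet7d over Mir98 was 31.5 and 31.3. These intervals cover counting error only.

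**Figure D3:**
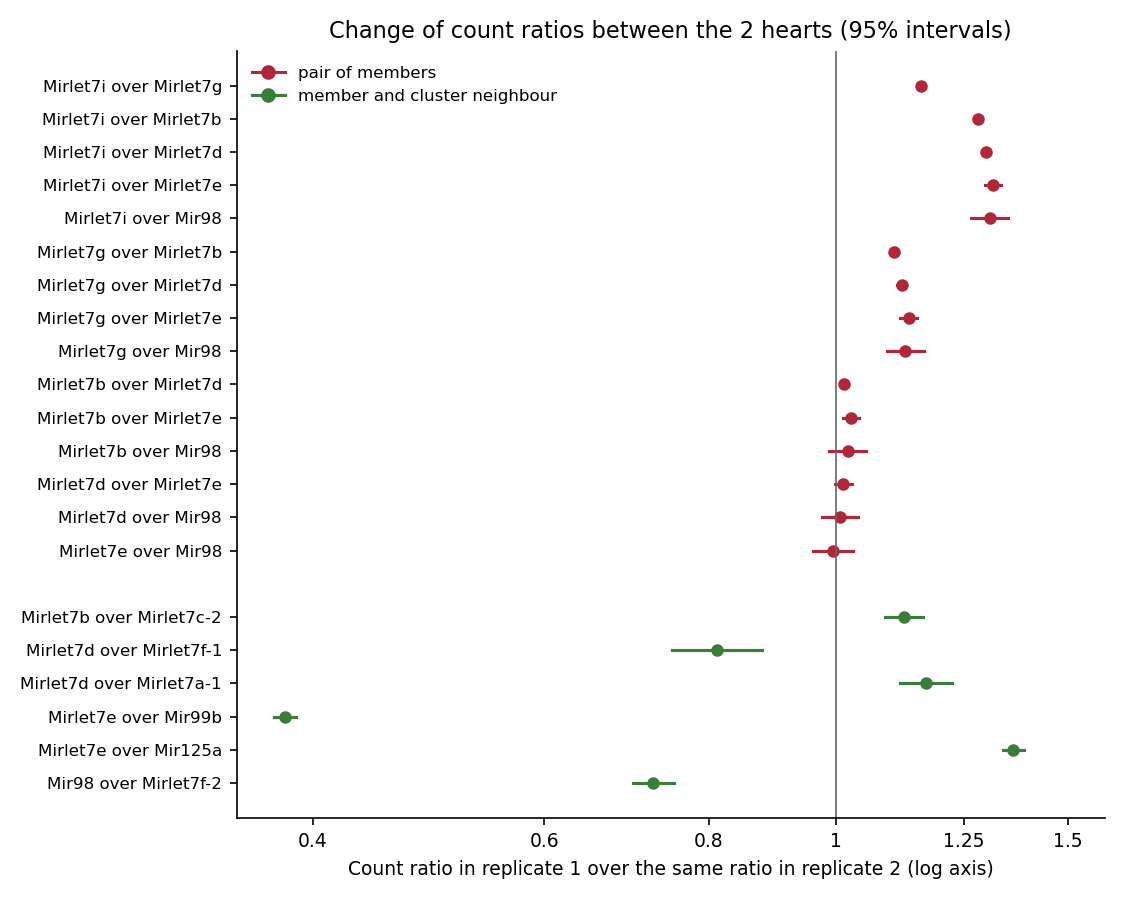
Count ratio of 2 genes in replicate 1 divided by the same ratio in replicate 2 (log axis), with 95% Wald intervals from the counts, for the 15 pairs of the 6 let-7 genes (red) and for 6 pairs of a let-7 gene and a cluster neighbour (green). The 6 red pairs without Mirlet7i and Mirlet7g, genes left out with the levels known, lie within 1.03-fold of 1. Mirlet7e over Mir99b lies lowest, at 0.381.

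Mirlet7b, Mirlet7d, Mirlet7e and Mir98 have other miRNA genes within 10 kb on the same strand, and such neighbours are often cut from 1 transcript. Mirlet7g and Mirlet7i have none. Mirlet7b lies 621 bases from Mirlet7c-2, which makes let-7c. Mirlet7c-2 had 6207 counts in replicate 1 and 8441 in replicate 2, and Mirlet7b exceeded it by 42.9-fold and 38.0-fold in those libraries. Mirlet7d lies 1714 bases from Mirlet7f-1, with 1245 and 1236 counts, and 2064 bases from Mirlet7a-1, with 3192 and 4568 counts. Mirlet7d exceeded Mirlet7f-1 by 174-fold and 214-fold, and Mirlet7a-1 by 67.8-fold and 58.0-fold, in replicates 1 and 2. In these clusters the let-7 gene with 1 locus was the higher one in both hearts, and the neighbours' mature forms come from 2 loci each, so multimapping reads are absent from the neighbours' counts. The folds are therefore those of assigned counts and not of RNA made.

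On the X chromosome the order was the other way round. Mirlet7f-2, which shares its mature form with Mirlet7f-1 and lies 785 bases from Mir98, had 32850 counts in replicate 1 and 29376 in replicate 2. Mir98 was at 0.209 of Mirlet7f-2 in replicate 1 (exact 95% interval 0.204 to 0.215) and at 0.288 in replicate 2 (0.281 to 0.295). Any reads of Mirlet7f-2 that were placed at several loci would lower these fractions further.

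Mirlet7e lies between Mir99b, 94 bases away, and Mir125a, 367 bases away, which are of other seed families. Mir99b had 62100 counts in replicate 1 and 29323 in replicate 2, or 12594 and 5607 CPM. Mir125a had 38235 and 64589 counts, or 7754 and 12350 CPM. Mirlet7e thus lay below both neighbours in replicate 1, and between them in replicate 2. Its ratio to Mir99b was 0.604 in replicate 1 (exact 95% interval 0.596 to 0.611) and 1.58 in replicate 2 (1.56 to 1.61), and its ratio to Mir125a was 0.980 (0.967 to 0.995) and 0.719 (0.711 to 0.728).

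All 6 ratios to a neighbour differed between the hearts beyond counting error (Fisher's exact test, two-sided, adjusted over 6 pairs, largest adjusted p = 2.18e-07, for Mirlet7d over Mirlet7f-1). At this depth calls are common. Of the 15 pairs of the 6 let-7 genes 11 were called. In the test of single genes between the hearts, 47 of the 50 other genes at or above the mean level of Mir98 were called. A call in all 6 pairs therefore says little about neighbours. Mirlet7e over Mir99b was 2.62-fold higher in replicate 2 (95% Wald interval 2.57 to 2.68), and Mir98 over Mirlet7f-2 was 1.38-fold higher there (1.33 to 1.43), as was Mirlet7d over Mirlet7f-1 by 1.23-fold (1.14 to 1.33). Mirlet7e over Mir125a was 1.36-fold (1.34 to 1.39), Mirlet7d over Mirlet7a-1 1.17-fold (1.12 to 1.22) and Mirlet7b over Mirlet7c-2 1.13-fold (1.09 to 1.16) higher in replicate 1. These changes were of 1.13-fold to 2.62-fold. Ratios among Mirlet7b, Mirlet7d, Mirlet7e and Mir98, a group chosen with the levels known, changed by at most 1.03-fold. Those that involve Mirlet7g or Mirlet7i changed by 1.11-fold to 1.32-fold. Mirlet7c-2, Mirlet7f-1, Mirlet7a-1 and Mirlet7f-2 have mature forms from 2 loci, so multimapping reads are missing from their counts. Multimapping reads per assigned read numbered 1.11 in replicate 1 and 1.03 in replicate 2. The part of these reads in the changes was not tested. Whether neighbours differ from pairs on other chromosomes in general was not tested.

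**Figure D4:**
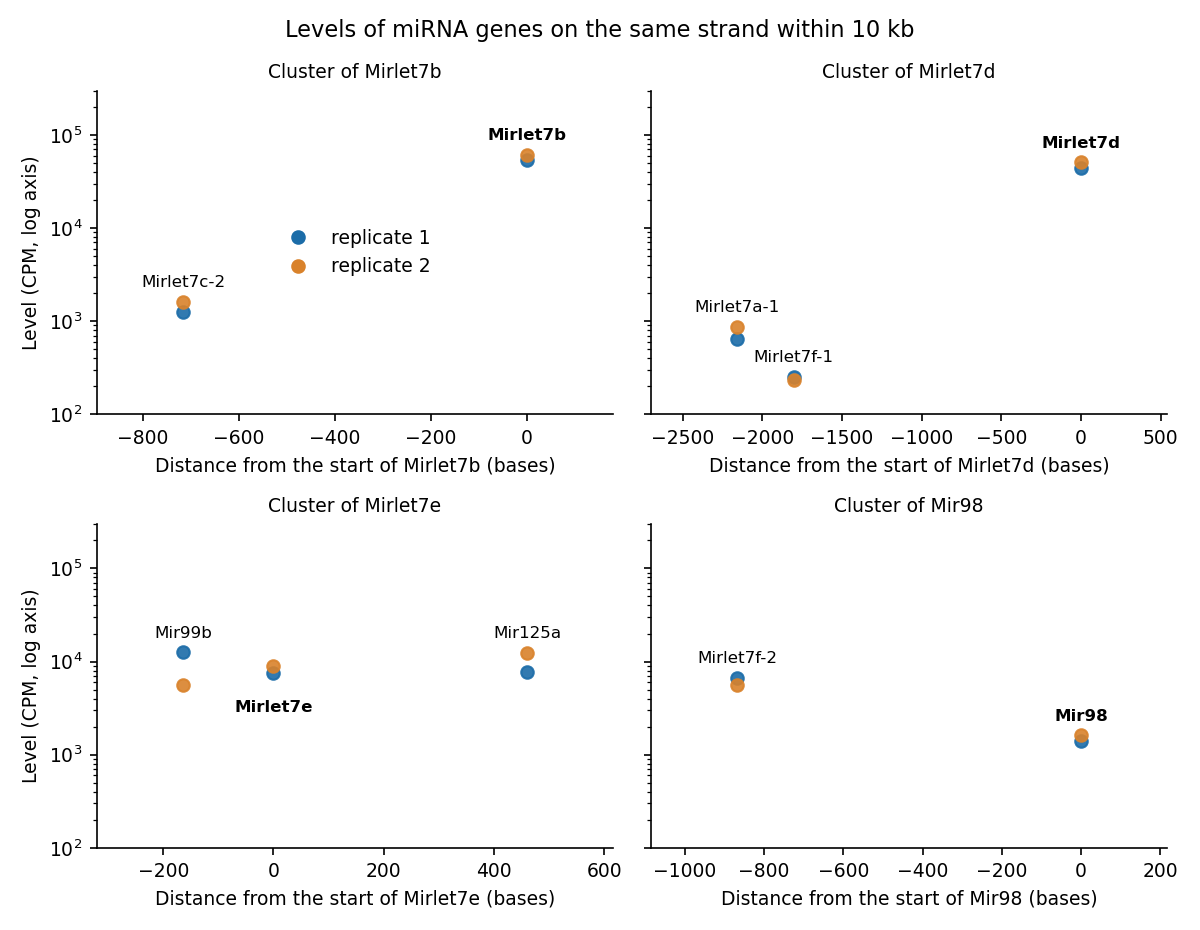
Level (CPM, log axis) of each of the 4 let-7 genes with neighbours, and of miRNA genes on the same strand within 10 kb, against distance in bases from the start of the let-7 gene in the direction of transcription, so that negative values lie upstream. Points are the 2 hearts. Mirlet7b and Mirlet7d stand above their neighbours, Mir98 below Mirlet7f-2, and Mir99b and Mir125a on either side of Mirlet7e moved in opposite directions.

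Mirlet7e has a further neighbour on the other strand. The annotated miRNA gene Gm25927 covers its hairpin in antisense and contains all 22 bases of the mature form in reverse complement. In the counts that keep strand, Gm25927 had 0 counts in both hearts, and a count of 0 allows at most 0.608 CPM (replicate 1) or 0.574 CPM (replicate 2), the level of 3 counts. Without strand, reads in the overlap are ambiguous, and the unstranded counts list Mirlet7e at 0 in both hearts. Its level and its place above Mir98 therefore rest on the stranded counts, while the other 5 genes kept their counts in the unstranded column within 5 reads.

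The 6 family genes whose mature form comes from 2 loci were all detected, and lay lower in assigned counts with the exception of Mirlet7f-2. At 6662 and 5617 CPM in replicates 1 and 2, Mirlet7f-2 was above Mir98 and below Mirlet7e. The remaining 5 ran down from Mirlet7c-2, at 1259 and 1614 CPM, to Mirlet7f-1, at 252 and 236 CPM. Mirlet7c-2 was below Mir98 within each heart, but in replicate 2 only by 8441 against 8467 counts, a difference that was not tested. Its range over the hearts overlapped that of Mir98. In the test between the hearts, Mirlet7a-2, Mirlet7c-1 and Mirlet7f-2 were called higher and Mirlet7a-1 and Mirlet7c-2 lower in replicate 1, and Mirlet7f-1 was not called (adjusted p = 0.142, exact binomial test). Outside these genes, the seed also stands in Mir7k and Mir1961. Mir7k had 3 counts in replicate 1 and 1 in replicate 2, and Mir1961 had 0 in both.

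Among 343 detected genes outside the family (Mir7j, whose mature form RefSeq names let-7j, was left out as well), likeness was measured as the distance in log2 CPM over the 2 libraries, which with 2 values is mainly likeness of level. Mir126a, an endothelial miRNA, was nearest to Mirlet7b (distance 0.19), Mirlet7g (0.20) and Mirlet7i (0.89). Mir139 was nearest to Mirlet7d (0.33), Mir652 to Mirlet7e (0.24) and Mir351 to Mir98 (0.19). Second nearest were Mir23b for Mirlet7b, Mirlet7d and Mirlet7g, Mir378a for Mirlet7i, Mir30a for Mirlet7e and Mir145a for Mir98. Mirlet7i had no gene outside the family closer than 0.89, and lay between Mir126a and Mir378a in both hearts.

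The scaling of the libraries shifts all log2 ratios together and leaves their order as it is. Mirlet7i stayed above 0 and Mirlet7b, Mirlet7d, Mirlet7e and Mir98 below 0 with each of the 6 scalings tried, and each kept its call. DESeq2's size factors, estimated without the count minimum so that genes with few counts entered, were 1 for both libraries. That scaling therefore compares the counts as they are. It alone gave the lowest values, 0.09 for Mirlet7i, -0.31 for Mirlet7e and -0.30 for Mir98. Under the other 5 scalings Mirlet7i ranged between 0.16 and 0.22, Mirlet7e between -0.24 and -0.18 and Mir98 between -0.23 and -0.17.

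**Figure D5:**
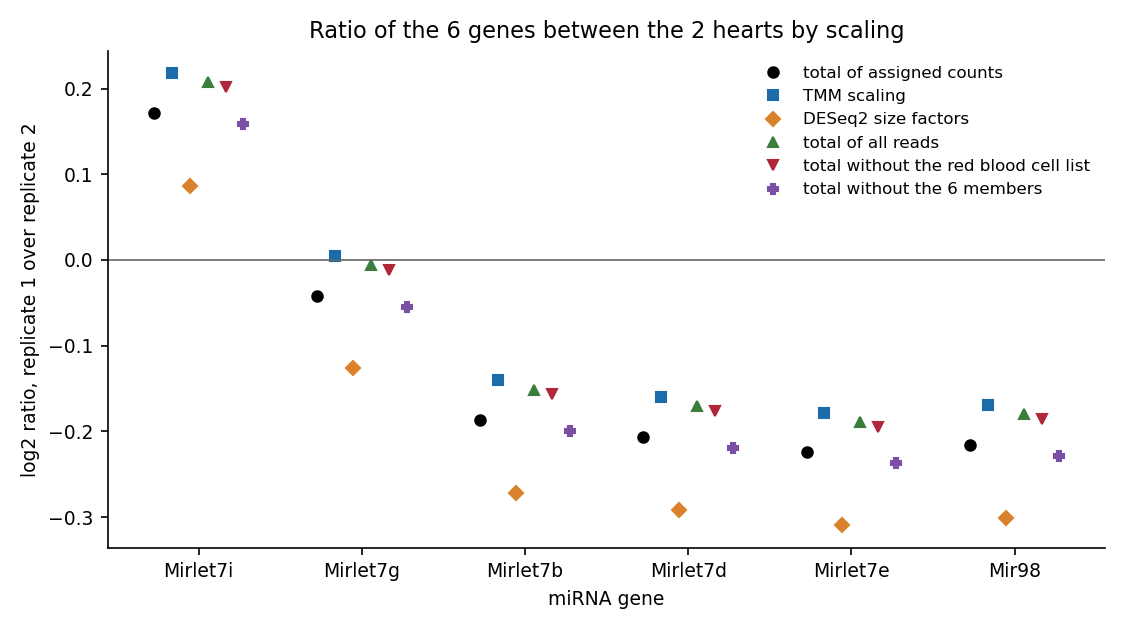
The log2 ratio of replicate 1 over replicate 2 for each of the 6 genes under 6 scalings of the libraries, 1 symbol for each scaling. Mirlet7i lies above 0 and Mirlet7b, Mirlet7d, Mirlet7e and Mir98 below 0 under each; Mirlet7g lies at -0.04 with the total of assigned counts and at 0.0049 with TMM.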

How the data were processed

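Small RNA libraries of 2 mouse hearts were analysed from whole-number read counts per miRNA gene, as deposited; per the text the authors deposited with the files, the build is mm10 and the annotation GENCODE M21. Aligner and counter: not given in the sources used here. Of the 3 columns of counts, without strand, on the gene's strand and on the opposite strand, the one on the gene's strand was used. The 4 entries without a gene (unmapped, several loci, outside genes, ambiguous) were left out of totals; they held 62.7% of reads in replicate 1 and 63.6% in replicate 2. Replicates 1 and 2 held 13210462 and 14363882 reads, of which 4930853 and 5229819 were assigned, and 1 count equals 0.203 and 0.191 CPM. All 2202 identifiers were matched to GENCODE M21. Log2 ratios use a pseudocount of 0.5 counts. Detected genes have at least 10 counts in both libraries.

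With 1 group no edgeR quasi-likelihood contrast exists, so libraries were compared by exact tests of counts (Python 3.11.15, scipy 1.17.1). The binomial test between libraries was first tried on simulated counts with counting error alone. That trial does not cover spread between libraries. edgeR 4.0.16 gave TMM factors and the coefficient of variation, and DESeq2 1.42.0 gave size factors. Intervals and floors cover counting error of reads only, since they were computed from read counts with 1 library per replicate. No molecular identifiers are mentioned, so amplified copies of 1 molecule may be counted as separate reads. If the libraries do not come from separate animals, the spread between them is technical. Genes named are the 6, neighbours within 10 kb on the same strand, hosts, other family or seed-sharing genes, the 2 nearest in level for each, and markers; Gm25927, Mir7j and single markers such as Mir199a-1 were named after their values were seen. Members and lists were chosen with earlier results of these data known. Sequences come from RefSeq (GRCm38.p6), where all 6 genes were matched. The region between the arms of Mir98 is not reported here.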

Additional observations from a re-analysis of the deposited data

Results flagged for a closer look

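Reads on the strand opposite to Mirlet7b, a column not used in the report, numbered 4 in replicate 1 and 5 in replicate 2. Both lie above the floor of 3 counts set for a count of 0. They stand against 265990 and 321168 counts on the gene's own strand. The other 5 genes had 0 opposite-strand counts in both hearts.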

How the results depend on the processing

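The number of genes that differed between the hearts was 226 of 356 tested. Under the alternatives it lay between 180 of 222 tested (at least 100 counts in both libraries) and 242 of 754 tested (no filter on low counts). The share called thus depends on the filter. Of the 6 let-7 genes 6 or 5 were called. With unstranded counts 5 of 5 were called, beside 201 of all 329 genes tested there. Mirlet7g alone changed: its log2 ratio was 0.0049 with TMM scaling and -0.0057 with a total of all reads, without a call. The share of the 6 genes, 27.4%, was 10.1% of all reads and 36.5% of unstranded counts, by construction of the totals, and lay between 27.0 and 27.7% without replicate 1 or 2. Unstranded counts kept 14 of 15 pairs in order; Mirlet7e, listed at 0 there, fell below Mir98, and its ratio between the hearts has no value. The total without the 6 genes was tried after seeing the data. No paired analysis was possible because there is 1 group. At 0.203 and 0.191 CPM per count in replicates 1 and 2, depth did not limit the 6 genes, but 2 libraries limit every statement on animals.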
